A study of Mus musculus with 2 samples.

Results

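The Adamts, Adamtsl and Mmp genes encode the secreted and membrane-bound metalloproteases of the extracellular matrix, together with the ADAMTS-like proteins that keep the ancillary domains but lack the protease. Members were all protein-coding autosomal genes of GENCODE release M21 on mm10 whose symbol is Adamts, Adamtsl or Mmp followed by a number and an optional letter. This gave 46 of 20807 genes, with 19 Adamts, 5 Adamtsl and 22 Mmp genes. Accessible regions were taken inside each gene or within 50 kb of it. A total of 165 of 32388 merged regions met this rule, formed from 136 of 28257 proximal peaks and 141 of 27958 distal peaks. A merged region joins peaks that overlap by at least 1 bp, and the 20807 genes used for comparison include the 46 members.

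Cartilage is mostly matrix, a network of type II collagen fibrils filled with the proteoglycan aggrecan, and its growth and replacement by bone depend on enzymes that trim, cut and clear that matrix. Both families are zinc metalloproteases made as inactive proenzymes. MMPs cleave collagens, gelatin and many other proteins, and are held in check by TIMPs. ADAMTS enzymes use thrombospondin repeats to bind their substrates, and among them are the aggrecan- and versican-cleaving enzymes, the procollagen N-proteinases and the enzymes that cut cartilage oligomeric matrix protein (COMP). MMP13 is the collagenase of hypertrophic chondrocytes, MMP9 is made by the osteoclasts and chondroclasts that erode calcified cartilage, and MMP14 is a membrane-anchored collagenase and activator of pro-MMP2.

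The study profiled chromatin accessibility in the femoral growth plates to find regulatory sequence bearing on height, using ATAC-seq, in which Tn5 transposase cuts and tags open DNA. The groups compared here were the proximal (hip) and the distal (knee) femoral growth plate of FVB/NJ mouse embryos at E15.5, and no treatment or mutant allele is named for either. Per the paper, the dissected tissue held every chondrocyte zone, the perichondrium and other cartilage of the bone end, without the forming bone collar. Each end was collected from pooled embryos, about 8 animals per pool on average, with 50000 cells per library. The 2 biological replicates of an end were combined by the authors into 1 list of reproducible peaks, so no replicate spread could be computed and no difference between the ends was tested. Intervals given with shares are 95% Wilson intervals and cover counting error only. The lists hold positions but no height or depth, so a region is either called or not called at an end, and the depth behind a call is unknown. In pooled tissue, fewer cells with an open site and a less open site in every cell cannot be told apart. The labelled cell type is chondrocyte, and all 6 chondrocyte markers examined (Sox9, Col2a1, Acan, Matn3, Col9a1, Comp) had a promoter region, at both ends in 5 and at the distal end only in Comp. A promoter region was present at 0 of 4 osteoblast markers, 1 of 4 osteoclast markers (Calcr), 2 of 4 endothelial, 1 of 4 leukocyte, 2 of 4 epithelial and 1 of 3 neuronal markers. The part of other cell types in the calls at members was not tested.

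Sequences from 3 promoters and 5 other regions illustrate the range of states found. The promoters are the 250 bases before the RefSeq start (GRCm38.p6, the assembly of mm10), read 5′ to 3′ along the gene, and were chosen to show a member without any region, a member called at the proximal end only and a member called at the distal end only. Capitals mark TGACTCA (the AP-1 consensus) and TGTGGT (RUNX) on either strand, and TATAAA on the strand of the gene. The Mmp13 stretch is chr9:7272264-7272513 (plus strand), with no region within 50 kb of the gene. The Mmp3 stretch is chr9:7445572-7445821 (plus strand), inside a proximal peak. The Mmp14 stretch is chr14:54431348-54431597 (plus strand), mostly covered by a distal peak.
Mmp13: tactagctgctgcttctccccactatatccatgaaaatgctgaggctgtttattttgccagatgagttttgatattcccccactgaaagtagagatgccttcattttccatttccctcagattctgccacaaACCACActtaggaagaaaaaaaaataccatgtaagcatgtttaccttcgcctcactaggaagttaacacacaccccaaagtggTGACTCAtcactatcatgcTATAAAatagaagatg
Mmp3: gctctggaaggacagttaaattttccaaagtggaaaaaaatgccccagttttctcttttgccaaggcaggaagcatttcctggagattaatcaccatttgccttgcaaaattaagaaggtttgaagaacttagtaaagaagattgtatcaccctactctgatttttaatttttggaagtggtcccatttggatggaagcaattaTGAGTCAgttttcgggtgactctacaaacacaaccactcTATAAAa
Mmp14: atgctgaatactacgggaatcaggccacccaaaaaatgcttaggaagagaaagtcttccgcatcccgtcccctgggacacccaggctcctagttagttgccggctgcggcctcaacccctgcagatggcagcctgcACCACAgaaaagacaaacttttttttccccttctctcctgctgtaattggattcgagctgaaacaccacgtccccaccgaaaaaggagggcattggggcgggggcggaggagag
Mmp13 held RUNX, AP-1 and TATAAA matches beginning 118, 35 and 16 bases before the start. Mmp3 held an AP-1 match beginning 46 bases and a TATAAA beginning 7 bases before the annotated start. Mmp14 held neither AP-1 nor TATAAA, and a RUNX match began 114 bases before the start. A match is a description of the letters and not evidence that a factor bound there.

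The other 5 stretches are the central 200 bases of an intronic or flanking region with an AP-1 match, given on the plus strand with AP-1, RUNX and SOX (AACAAT) matches in capitals. They are the regions over 3 kb from any start site, 1 per member, in which most of these motifs lay together or recurred, among members with a RefSeq promoter entry. The Adamts3 region was intronic and called at both ends (chr5:89850198-89850397). The Mmp11 region was flanking, lay within Smarcb1 and was called at the proximal end (chr10:75899017-75899216). The Mmp14 region was flanking and called at both ends (chr14:54481526-54481725), as was that of Mmp15 (chr8:95348523-95348722). The Mmp28 region was intronic and called at the proximal end (chr11:83458048-83458247).
Adamts3: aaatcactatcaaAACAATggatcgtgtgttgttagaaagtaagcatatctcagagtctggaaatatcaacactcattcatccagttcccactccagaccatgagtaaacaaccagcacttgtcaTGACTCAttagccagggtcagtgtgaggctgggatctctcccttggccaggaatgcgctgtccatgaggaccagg
Mmp11: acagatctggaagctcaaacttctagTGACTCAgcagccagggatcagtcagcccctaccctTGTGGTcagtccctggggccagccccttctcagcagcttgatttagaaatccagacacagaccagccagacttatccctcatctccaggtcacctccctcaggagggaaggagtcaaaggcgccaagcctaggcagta
Mmp14: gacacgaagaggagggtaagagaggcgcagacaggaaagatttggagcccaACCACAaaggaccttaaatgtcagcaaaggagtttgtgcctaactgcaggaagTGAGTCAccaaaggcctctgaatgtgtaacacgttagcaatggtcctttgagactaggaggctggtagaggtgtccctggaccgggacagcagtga
Mmp15: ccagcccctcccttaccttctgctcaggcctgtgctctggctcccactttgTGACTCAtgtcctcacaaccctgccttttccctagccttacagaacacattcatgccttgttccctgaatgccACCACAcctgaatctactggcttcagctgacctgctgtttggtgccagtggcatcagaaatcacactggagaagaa
Mmp28: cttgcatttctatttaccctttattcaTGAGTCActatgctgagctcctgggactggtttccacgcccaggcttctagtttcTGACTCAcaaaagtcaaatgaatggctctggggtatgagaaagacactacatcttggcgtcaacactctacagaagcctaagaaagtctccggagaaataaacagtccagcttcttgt
The Mmp28 stretch held AP-1 matches at bases 28 and 83. The Adamts3 stretch held a SOX match at base 14 and an AP-1 match at base 126, and each of the other 3 stretches held both an AP-1 and a RUNX match.

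A promoter region is here a merged region within 1 kb of the start site of any annotated transcript of the gene itself. Of the 46 members, 26 (56.5%) had one, against a background of 59.1% of all genes. They differed from the background less in whether the promoter was called than in whether it was called at both ends. Promoter regions were called at both ends in 17 members (37.0%, 24.5 to 51.4) against 55.1% of all genes. They were called at the proximal end only in 3 members (6.52%, 2.24 to 17.5) and at the distal end only in 6 (13.0%), where the backgrounds were 1.34% and 2.73%. Together, 9 members (19.6%, 10.7 to 33.2) were called at 1 end only, against a background of 4.07%. Among the 26 members with a promoter region these 9 were 34.6% (19.4 to 53.8), and among the 12302 such genes overall the share was 6.89%. A further 5 members (10.9%) had regions inside the gene but none at its own starts, against 4.97% of all genes. Another 12 (26.1%) had only flanking regions, against 22.3%. The remaining 3 (6.52%) had no region in the gene or within 50 kb and are called closed here, against a background of 13.6%.

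**Figure D1:**
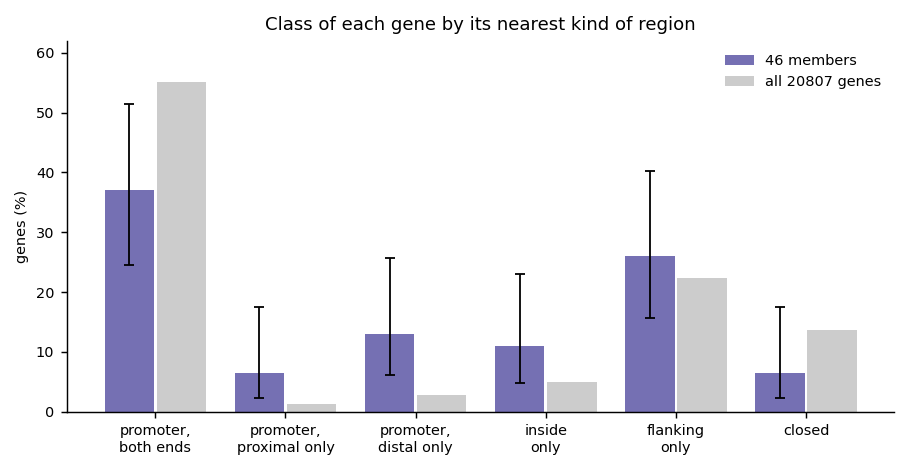
Share of genes (%) in each of 6 classes for the 46 members (purple, bars show 95% Wilson intervals) and all 20807 protein-coding autosomal genes (grey). Promoter regions called at both ends were less frequent in members (37.0% against 55.1%), and promoter regions called at the distal end only were more frequent (13.0% against 2.73%).

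**Figure D2:**
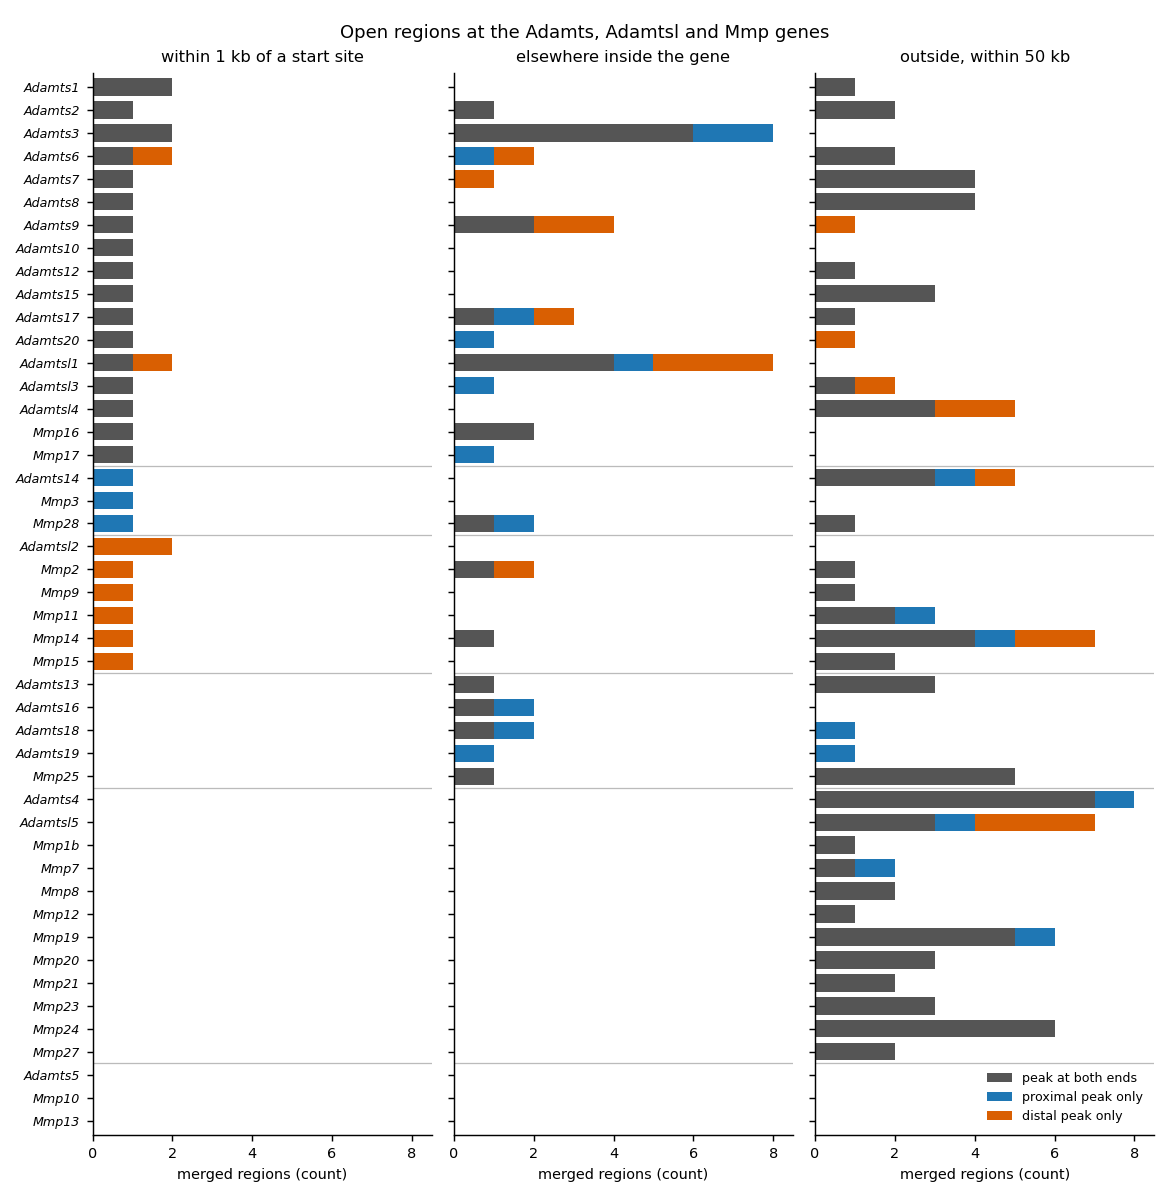
Number of merged regions at each member (x axis, count). Regions are split into those within 1 kb of the member's own start sites, elsewhere inside the gene, and outside it within 50 kb. Grey marks regions with a peak of both ends, blue a proximal and orange a distal peak only; horizontal lines separate the 6 classes. Adamts3 and Adamtsl1 carried the most regions inside the gene, and Adamts5, Mmp10 and Mmp13 carried none.

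The families differed in where they were called. Of the 19 Adamts genes, 12 had a promoter region at both ends, 1 at the proximal end only, 4 had only regions elsewhere in the gene, 1 had only flanking regions and 1 was closed. Of the 22 Mmp genes, 2 had a promoter region at both ends, 2 at the proximal end only, 5 at the distal end only, 1 had a region only elsewhere in the gene, 10 had only flanking regions and 2 were closed. The 5 Adamtsl genes had 3, 0, 1, 0, 1 and 0 in the same order (both ends, proximal only, distal only, inside only, flanking only, closed). Over all genes the shares of these classes were 55.1%, 1.34%, 2.73%, 4.97%, 22.3% and 13.6%. The families also differ in length, with medians of 114010 bp for Adamts and 14412 bp for Mmp genes. A promoter region was present in 45.7% of all genes under 20 kb, 72.4% from 20 to 100 kb and 81.3% over 100 kb. In addition, 9 of the Mmp genes form 1 cluster on chromosome 9. The part of length and shared origin in the family counts was not tested.

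The proteoglycan-cleaving group holds the enzymes that cut aggrecan, versican and related proteoglycans, and 5 of its 7 members (Adamts1, Adamts8, Adamts9, Adamts15, Adamts20) had a promoter region at both ends. Adamts1 was marked by a pair of regions. The region over the principal start (chr16:85802438-85803513) had a proximal peak of 1027 bp and a distal peak of 777 bp, and the region over a second coding start (chr16:85800652-85801746) had peaks of 1081 and 1093 bp. Adamts9 had a promoter region (chr6:92943031-92943952) with peaks of 922 bp proximally and 884 bp distally, and 4 intronic regions. The principal start of Adamts20, a gene studied for its role in pigment cell migration, lay under a region (chr15:94403565-94404828) whose peak was 1031 bp wide proximally and 1264 bp distally.

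The main aggrecan-degrading enzymes of adult cartilage, Adamts4 and Adamts5, did not carry a promoter region at either end. Adamts4 (chr1:171250421-171260637) had 8 flanking regions, 7 with a peak of both ends and 1 with a proximal peak only, and 7 of the 8 lay at the start of another gene, such as B4galt3 and Usp21. The remaining region (chr1:171262505-171263424) lay 1868 bp beyond the gene, with peaks of 843 and 889 bp. Adamts5 (chr16:85856173-85901828) was closed, and its nearest region was the Adamts1 promoter region, 52660 bp away.

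The procollagen N-proteinases, which remove the amino propeptide so that fibrillar procollagen can assemble, all had a promoter region by the 1-kb rule. Adamts3, the type II procollagen enzyme, had 10 regions inside the gene (chr5:89677087-89883334), of which 2 were promoter regions called at both ends and 8 were intronic. The region over its principal start (chr5:89882899-89883839) had peaks of 807 bp proximally and 863 bp distally. Adamts2, mutated in a connective tissue disorder of skin, had a narrower promoter region (chr11:50601581-50602225) of 617 and 575 bp and 1 intronic region called at both ends (chr11:50769192-50769828). Adamts14 was called at the proximal end only, by a peak 952 bp from its principal start.

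Both COMP-cleaving enzymes, Adamts7 and Adamts12, were called at both ends. The Adamts7 promoter region (chr9:90162485-90164039) was the widest promoter region of any member, at 1555 bp, with peaks of 1531 bp proximally and 1398 bp distally. That of Adamts12 (chr15:11064079-11065434) had peaks of 1356 and 1240 bp and was the single region at this 284442-bp gene, apart from 1 flanking region. Of the other 7 Adamts genes, Adamts6, Adamts10 and Adamts17 had a promoter region at both ends (Adamts10 and Adamts17 act on fibrillin microfibrils and are mutated in short-stature syndromes), and Adamts13, Adamts16, Adamts18 and Adamts19 had only regions elsewhere in the gene. The Adamts13 region (chr2:27009489-27010408) covered its last bases and lay at the start of Cacfd1, so the start of Adamts13, the von Willebrand factor protease, was not called. Among the ADAMTS-like genes, Adamtsl1, Adamtsl3 and Adamtsl4 had a promoter region at both ends, Adamtsl2 at the distal end only, and Adamtsl5 had only flanking regions. The Adamtsl1 region called at both ends (chr4:85513826-85514940) lay within Sh3gl2, at a coding start 538975 bp from the principal start, which had a distal peak only.

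None of the 3 collagenases had a promoter region: Mmp13 was closed, and Mmp8 and Mmp1b had only flanking regions. Both gelatinases, Mmp2 and Mmp9, were called at the distal end only. Of the stromelysins, matrilysin and metalloelastase, Mmp3 was called at the proximal end only and Mmp11, which unlike most MMPs is activated inside the cell by furin, at the distal end only, Mmp7 and Mmp12 had only flanking regions, and Mmp10 was closed. Of the 6 membrane-bound enzymes, Mmp16 and Mmp17 were called at both ends, Mmp14 and Mmp15 at the distal end only, Mmp25 had 1 region inside the gene, and Mmp24, a gene expressed mainly in the nervous system, had 6 flanking regions. Mmp16 (chr4:17852893-18119145), which like Mmp14 spans the membrane and can cut collagen, had wide regions. Its promoter region (chr4:17852696-17854088) had a proximal peak of 1073 bp and a distal peak of 1393 bp, and an exonic region (chr4:18053351-18054930) had peaks of 1506 and 1580 bp. Of the remaining Mmp genes, Mmp28 (epilysin) was called at the proximal end only, and Mmp19, Mmp20 (the enamel protease), Mmp21, Mmp23 and Mmp27 had only flanking regions.

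The 9 members with a promoter region at 1 end fell into those called over or within 1 kb of their principal start (the APPRIS principal transcript) and those called near another start only. At the distal end, Mmp2 had a 652-bp peak over its principal start (chr8:92827047-92827698), and the nearest proximal peak was 8488 bp away. Mmp14 had a 345-bp distal peak over its start (chr14:54431370-54431714), with the nearest proximal peak 4028 bp away. Adamtsl2, which binds fibrillin and is mutated in a short-stature syndrome, had a 426-bp distal peak over its start (chr2:27079159-27079584) and a 547-bp distal peak at the start of a retained-intron transcript (chr2:27096530-27097076). The nearest proximal peaks lay 50893 and 68264 bp away, so no proximal peak was called in or within 50 kb of Adamtsl2. All 3 principal starts were therefore covered by a peak of the distal list alone.

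The other 3 distal calls rested on minor starts. The Mmp9 peak (chr2:164953232-164953581, 350 bp) lay 805 bp from the start of a noncoding transcript and 5013 bp from the principal start. The Mmp15 peak (chr8:95369569-95370152, 584 bp) covered the start of a retained-intron transcript, and the principal start lay 3375 bp from the nearest region. The Mmp11 peak (chr10:75935622-75936070, 449 bp) lay 426 bp from a coding start of Mmp11 and 3120 bp from the principal start. It lay nearer to the start of Chchd10, at 49 bp, and within that gene, so the call may belong to either gene. The distal calls at Mmp9, Mmp15 and Mmp11 thus did not mark the principal start.

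At the proximal end, Mmp3 had a 671-bp peak over its principal start (chr9:7445409-7446079), and the nearest distal peak was 106363 bp away. Mmp28 had a 484-bp peak over its start (chr11:83462734-83463217) and a further proximal peak of 514 bp in an intron (chr11:83457891-83458404), with distal peaks 9055 and 13868 bp away. The Adamts14 peak (chr10:61271937-61272486, 550 bp) lay inside the gene, 952 bp from the principal start, and the nearest distal peak was 13651 bp away. When only principal starts were used, 23 of 46 members had a region within 1 kb of one against a background of 56.2%. In 7 (15.2%) it was called at 1 end only, against a background of 3.95%. These 7 were Mmp2, Mmp14, Adamtsl2, Mmp3, Mmp28, Adamts14 and Adamtsl1. The last had a 662-bp distal peak over its principal start (chr4:86053510-86054171), besides the region called at both ends at an upstream start.

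**Figure D3:**
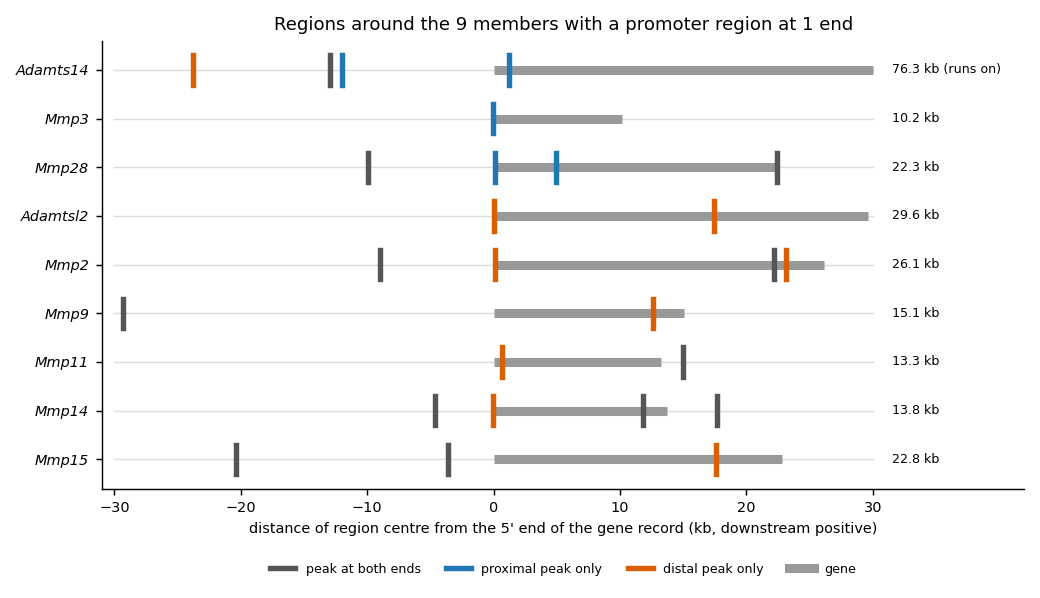
Regions around the 9 members with a promoter region at 1 end, as the distance of the region's centre from the 5′ end of the gene record (x axis, kb, downstream positive). Grey bars are genes with their length at the right, and vertical marks are merged regions with a peak of both ends (dark grey), proximal only (blue) or distal only (orange). In Mmp3, Mmp28, Adamtsl2, Mmp2 and Mmp14 the mark called at 1 end sits at the 5′ end of the gene; in Mmp9 and Mmp15 it lies deep in the gene.

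The promoter regions called at 1 end were narrow. Members held 31 promoter regions in all, 19 with a peak of both ends, 3 proximal only and 9 distal only, so 12 (38.7%, 23.7 to 56.2) were called at 1 end against a background of 10.6% of 12418 promoter regions. These 12 were 345 to 744 bp wide with a median of 548.5 bp, and 11 were narrower than the median of their own list, which was 711 bp for the proximal and 691.0 bp for the distal list. Over all genes the 1312 such regions had a median of 584.0 bp and 69.5% were narrower than the median of their list. With promoter regions divided at the median width of all merged regions (716 bp), a split made after the values were seen, 11 of 13 narrower member regions (84.6%, 57.8 to 95.7) were called at 1 end, against 35.8% of 2610 over all genes. Of the 18 wider member regions, 1 was called at 1 end (5.56%, 0.988 to 25.8), against 3.84% of 9808. Whether the other end fell just short of the calling threshold at these sites was not tested, since the lists hold no score.

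Where a promoter region had a peak of both ends, the widths of its peaks differed by 9 bp (Adamts8) to 320 bp (Mmp16). Over the 19 such regions the median width was 952 bp proximally and 890 bp distally. The median signed difference within a region (proximal minus distal) was 23.0 bp, with 11 wider proximally and 8 distally. Differences of opposite sign offset each other in this value, so it does not measure how close the widths were. Over all 11106 promoter regions compared the median signed difference was 9 bp. The largest differences were at Mmp16 (320 bp wider distally), at the principal start of Adamts1 (250 bp wider proximally), at Adamtsl3 (249 bp wider proximally) and at Adamts20 (233 bp wider distally). Peak width depends on depth and on the caller as well as on the extent of accessible chromatin, and no test of these differences was possible.

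**Figure D4:**
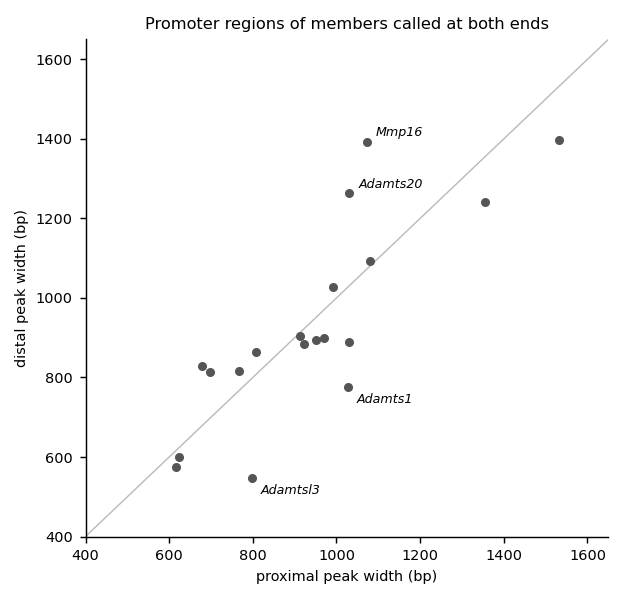
Width of the distal peak (y axis, bp) against the proximal peak (x axis, bp) for the 19 promoter regions of members called at both ends. The line marks equal widths; the 4 genes with the largest differences are named. Mmp16 and Adamts20 lie above the line, and Adamts1 and Adamtsl3 below it.

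Inside the genes but more than 1 kb from the member's own start sites, members held 37 intronic and 7 exonic regions. Of the exonic regions, 2 were promoter regions of another protein-coding gene. The Adamts9 intronic regions at chr6:92940181-92940675 and chr6:92940884-92941779 lay at the start of 9530026P05Rik, which is not protein-coding. Intronic regions occurred in 16 members (34.8%) against a background of 17.1%. The members were longer than most genes, with a median length of 25624 bp against 17629 bp, and 114010 bp for Adamts alone. Within length classes, an intronic region was found in 1 of 18 members under 20 kb (5.56%, all genes 1.92%), 3 of 15 from 20 to 100 kb (all genes 22.0%) and 12 of 13 over 100 kb (92.3%, all genes 73.4%). Per 100 kb of gene, members held 1.75 regions and all genes 2.08. The value was 1.73 for Adamts, 1.21 for Adamtsl and 2.85 for the shorter Mmp genes, whose median length was 14412 bp. Of the 37 intronic regions, 24 lay in Adamts, 9 in Adamtsl and 4 in Mmp genes.

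Of the intronic regions, 18 (48.6%, 33.4 to 64.1) were called at 1 end, 11 proximally and 7 distally, and the background was 39.5%, inside that interval. Adamts3 had 6 intronic regions called at both ends and 2 called proximally (chr5:89849421-89849741, 321 bp, and chr5:89876755-89877120, 366 bp). The former lay 314 bp from a distal peak and the latter 4827 bp. Its widest intronic region (chr5:89816361-89817648) had peaks of 1286 bp proximally and 1264 bp distally, centred 66329 bp downstream of the 5′ end of the gene. Adamtsl1, at 914214 bp the longest member, had 4 intronic regions called at both ends, 1 called proximally (chr4:85837500-85838168) and 3 called distally (chr4:86006600-86006953, chr4:86176016-86176823 and chr4:86317048-86317474). The widest of these, at 808 bp, was 156000 bp from the nearest proximal peak.

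Adamts9 had a pair of intronic regions called distally (chr6:92787327-92787700 and chr6:92940181-92940675), the latter 209 bp from a proximal peak. Adamts17 had 1 of each (distal, chr7:67064590-67065211; proximal, chr7:67087813-67088508) and 1 called at both ends (chr7:67112381-67113351). Adamts6 had a proximal intronic region (chr13:104432856-104433366) and a distal exonic region (chr13:104352441-104353038), 79818 and 65095 bp from a peak of the other end. It also had a 744-bp distal region near its start (chr13:104288129-104288872), 783 bp from a proximal peak. Thus Adamts6, Adamts17 and Adamtsl1 each held calls of both kinds.

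Proximal calls without a distal peak were also present in introns of Adamts16 (chr13:70818966-70819433), Adamts18 (chr8:113721309-113721855), Adamts20 (chr15:94444125-94444561) and Adamtsl3 (chr7:82405334-82405879), and in Mmp17 over an exon (chr5:129594184-129594630). In Adamts19, the sole region inside the gene was a proximal one of 351 bp in an intron, centred 51217 bp downstream of the 5′ end, and the nearest distal peak was 227457 bp away, the greatest such distance at any member. A distal call was present in an intron of Adamts7 (chr9:90206528-90206884), a stretch that Tbc1d2b also spans. Mmp2 had an intronic region called at both ends (chr8:92849259-92849748, 478 and 468 bp) followed 382 bp further on by a distal peak over an exon (chr8:92850130-92850700, 571 bp). The Mmp14 intronic region was called at both ends (chr14:54443143-54443769, 479 bp proximally and 627 bp distally).

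Flanking regions were found at 35 members (76.1%) against a background of 78.9%, and many lay at the start of another gene. Of the 90 flanking regions, 52 (57.8%, 47.5 to 67.5) lay within 1 kb of a start site of a gene that is no member, in 50 cases a protein-coding gene. At Mmp21 and Mmp23 all flanking regions did so (for Mmp21 at the starts of Edrf1 and of Bccip and Uros). More than 3 kb from any start site lay 30 of the 90. Neither share was computed over the flanking regions of all genes, so these counts only describe the regions and are not a trait of members. Of the 50 flanking regions at other protein-coding starts, 5 (10.0%) were called at 1 end, beside 10.6% for promoter regions of all genes. Of the 33 that lay outside every protein-coding gene and over 1 kb from its starts, 13 were called at 1 end (39.4%, 24.7 to 56.3), and the background for such regions was 34.2%. Mmp14 had 7 flanking regions, 4 called at both ends, 1 proximally and 2 distally, the latter near and within Rem2 (chr14:54475909-54476392 and chr14:54479441-54479968). Adamtsl5 also had 7, of which 3 were called distally, including a 393-bp peak 1841 bp upstream of its principal start (chr10:80350253-80350645).

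Over all places, 53 of the 165 regions (32.1%, 25.5 to 39.6) were called at 1 end, 24 proximally and 29 distally, against a background of 24.8%. They had a median width of 514 bp, beside 852 bp for regions called at both ends. Their median distance to a peak of the other end was 13672 bp, and 6 lay within 1 kb of such a peak. At least 1 of them was present at 26 members, a count for which no share over all genes was computed.

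Mmp13, Mmp12, Mmp1b, Mmp3, Mmp10, Mmp8, Mmp27, Mmp20 and Mmp7 form a cluster of 9 genes on chromosome 9 (chr9:7272514-7699585, 427072 bp). It held 4 regions, or 0.937 per 100 kb of the whole span, sequence between genes included. This value cannot be set beside the densities inside genes given above, and no background for such spans was computed. Of the 4, 1 region, the proximal peak at the Mmp3 start, lay in or at the start of a cluster gene. The other 3 were called at both ends. That at chr9:7338387-7339080 lay between Mmp13 and Mmp12, 5301 bp from Mmp12, with peaks of 663 bp proximally and 660 bp distally. The others (chr9:7594850-7595689 with peaks of 805 and 769 bp, and chr9:7603320-7603859 with 540 and 534 bp) lay between Mmp27 and Mmp20. Beyond the cluster, a region called at both ends (chr9:7714064-7714466) lay 14479 bp from Mmp7. Mmp13 (chr9:7272514-7283331) was 55056 bp from its nearest region and Mmp10 (chr9:7502352-7510240) was 56273 bp from the Mmp3 peak, so both fell just outside the 50-kb limit that defines a closed gene, as did Adamts5.

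**Figure D5:**
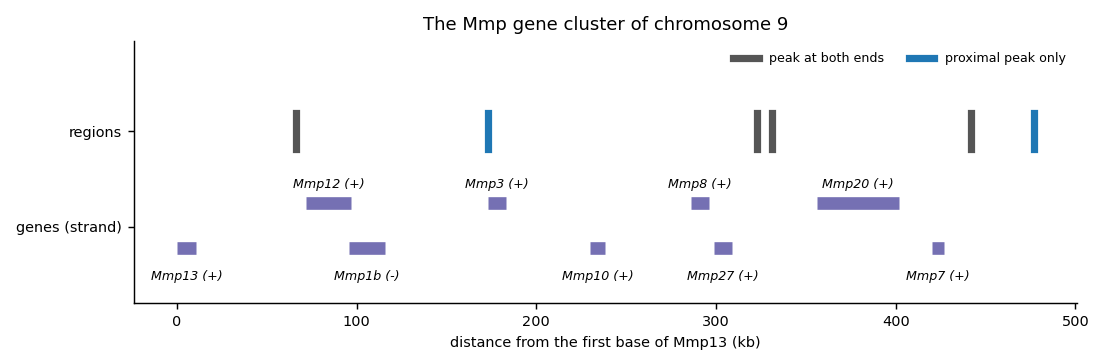
Map of the Mmp cluster of chromosome 9, with distance from the first base of Mmp13 on the x axis (kb). Purple bars are genes with their strand, and upper marks are merged regions with a peak of both ends (grey) or a proximal peak only (blue). Inside the cluster, 3 grey marks fall between genes and the blue mark falls on the Mmp3 start; a grey and a blue mark lie beyond Mmp7.

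Other pairs of members that follow one another on a chromosome, with or without other genes between them, differed. Adamts15 and Adamts8 are transcribed away from each other from starts 20110 bp apart, and both starts were called at both ends. The Adamts15 region (chr9:30922139-30922951) had peaks of 697 and 813 bp and the Adamts8 region (chr9:30942465-30943425) of 913 and 904 bp. Adamts1 and Adamts5 are transcribed in the same direction 53060 bp apart, with no region between them. Adamts13 and Adamtsl2 lie 69751 bp apart and are not adjacent genes. The 1 region between them lay at the start of Slc2a6, and neither member had a start called at both ends.

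For AP-1, RUNX and SOX, with the letters given above, member regions held close to the share found in all regions. In the central 200 bases, the AP-1 letters on either strand were present in 30 of 165 member regions (18.2%, 13.0 to 24.8) and in 19.9% of all 32388. The shares were 12.7% and 13.7% for RUNX and 3.64% and 3.87% for SOX. CCAAT was present in 33 member regions (all regions 22.5%), and GGAAGT, the core bound by ETS factors, in 26 of 165 and in 5033 of 32388. Among regions more than 3 kb from any start site, the AP-1 letters were present in 20 of 66 member regions (30.3%, 20.6 to 42.2) and in 30.8% of 16673. The RUNX letters were present there in 16 member regions (24.2%) and in 18.2% of all.

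RefSeq promoter sequences of 300 bases around the start were matched for 31 of the 46 members. CpG content was given as the observed over the expected number of CpG dinucleotides. Its median was 0.73 in the 9 member promoters under a region of both ends (range 0.25 to 1.00), 0.35 in the 4 under a region of 1 end (0.08 to 0.66) and 0.26 in the 18 without a region (0.00 to 1.01). Over all genes with a sequence the medians were 0.80, 0.70 and 0.22. The 4 member promoters under a region of 1 end were Mmp3 (0.08), Adamtsl2 (0.27), Mmp14 (0.43) and Mmp28 (0.66). CpG-rich promoters without a region over the window were also present, as in Adamts14 (1.01), Mmp24 (0.92) and Adamtsl5 (0.76). TATAAA was present in 9 of the 31 member promoters (29.0%) and 8.60% of all promoters, and TGACTCA in 5 (16.1%) and 4.58%. All 5 with TGACTCA (Mmp1b, Mmp3, Mmp7, Mmp10, Mmp13) belong to the chromosome 9 cluster and share an origin by duplication, so they are not independent examples. The same holds for 6 of the 9 with TATAAA (these 5 and Mmp20). All 9 cluster genes were among the 31 sequences, whereas 8 of the 17 members called at both ends were not, so these shares do not describe the members as a whole.

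A list of 17 partner genes held inhibitors, a clearance receptor, activating convertases, substrates and related proteases outside the Adamts and Mmp families. A promoter region was present at 15 of them, in 13 at both ends, against 59.1% and 55.1% of all genes. These 13 included the inhibitors Timp2, Timp3, Reck and A2m, the clearance receptor Lrp1 that takes up ADAMTS and MMP enzymes, the convertase Pcsk5, the substrates Acan, Vcan and Col2a1, and all 4 related proteases (Bmp1, Tll1, Adam10 and Adam17). The convertase Pcsk6 and the substrate Comp were called at the distal end only. Timp4 and the convertase Furin, which removes the propeptide of many of these enzymes, had flanking regions but no promoter region.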

How the data were processed

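ATAC-seq was carried out on the proximal and the distal femoral growth plate, 1 deposited list per end. Per the labels and the study's methods, the authors used Bowtie2 and mm10 for alignment (2.2.8 in the submitters' processing notes), removed duplicates, called peaks with MACS2 (2.1.1 in those notes) and kept peaks of 2 biological replicates that passed an irreproducible discovery rate (IDR) of 0.05. The deposited files give chromosome, start and end, in base pairs (unit: other), on 19 autosomes, so sex-linked genes were not analysed here. The number of reads behind a peak was therefore unknown.

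Peaks of both ends overlapping by at least 1 bp were merged and placed against every GENCODE M21 gene in Python 3.11.15, in the order promoter (within 1 kb of any transcript start), exonic, intronic, flanking (within 50 kb). A region inside or near several members was counted once in region counts. Starts were converted to 1-based positions. Sequence was read from GRCm38.p6, in which all 19 autosomes were found by name and 0 regions ran past an end. Wilson intervals were computed with statsmodels 0.14.6. Placement was checked on made-up gene models with known answers. With 1 list per end there was no test. Mmp1a, annotated as a polymorphic pseudogene, has a fitting symbol but was left out by the rule.

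Members, roles, markers, partner genes and motifs were chosen with earlier results of these data known. Every member was named with its class. Positions were printed for members called at 1 end, for the 5 with the most regions inside the gene, for the widest promoter region and for genes known in cartilage, except that Adamts19 is given by distances. Protein sequences were not used here.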

Additional observations from a re-analysis of the deposited data

How the results depend on the processing

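No paired analysis was possible because each end has 1 combined list, and no replicate could be left out, for the same reason. Of the 41 recomputed values, 25 stayed near the reported value (a count within 1.5 times, a share or density inside its 95% interval) and 16 moved. Without peaks narrower than their list's median, members with a promoter region numbered 16, with an intronic region 5, closed 12, regions called at 1 end 19, and regions per 100 kb of gene 0.684. Members called at the distal end only then numbered 3 (Adamts6, Adamts10, Adamts15) and at the proximal end only 1 (Adamtsl3), and none of these is among the 9 named above. Settings for the promoter calls at 1 end were chosen after seeing the data. With promoter distances of 0.5 or 3 kb, or with coding or principal starts, 4 to 6 members were called distally and 2 or 3 proximally, and Mmp2, Mmp14, Adamtsl2, Mmp3 and Mmp28 were among them under each of these. By construction, 17 members had a promoter region when a peak of both ends was required. A 20-kb flank left 21 members with a flanking region and 7 closed, a 100-kb flank left 0 closed, and 15 were closed when flanks were ignored. Regions called at 1 end numbered 33 inside the genes and at their starts, and density was 1.04 per 100 kb without promoter regions. Of these settings, only principal starts and the peak of both ends were also computed over all genes. The other counts and densities therefore describe the members only. TGACTCA was present in 32.7% of whole member regions, beside 33.4% of all whole regions. Over 3 kb from start sites it was present in 30.3% of member regions, beside 30.8% of all. What the lists cannot give is a depth, so a peak just below the threshold at the other end and an inaccessible site look alike.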
